A study of Mus musculus with 6 samples.

Results

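The sarcomeric myosin heavy chain genes and the long noncoding RNA linc-MYH (2310065F04Rik) were examined in the quadriceps of AR97Q mice with and without exercise. They comprise the fast genes Myh4 (type IIB), Myh1 (type IIX) and Myh2 (type IIA), the developmental genes Myh3 (embryonic) and Myh8 (perinatal), the slow gene Myh7, and Myh6 and Myh7b. Every probe whose transcript identifier mapped to 1 of these 9 genes was taken, which gave 14 probes, of which 13 passed the detection filter (a signal well above background on 3 or more arrays). The 9 genes are part of 25005 genes and transcripts measured. The members were chosen by measured values of the same contrast, exercise against sedentary, because linc-MYH was among the RNAs that differed most between the groups and because Myh1, Myh2, Myh4, Myh7 and Myh8 had been seen to differ in part, so the group differences of the members are given as a description, and the calls that the fit over all probes made among them are counted but not read as evidence.

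The study asked how running exercise early in the disease alters muscle in spinal and bulbar muscular atrophy (SBMA), a polyglutamine disease modelled here in mice. All 6 mice were male AR97Q mice, which carry a transgene of the human androgen receptor with an expanded CAG repeat on a C57BL/6J background, and all were 9 weeks old. The 3 mice of the exercise group had run on a motorised wheel at low to moderate intensity during the preceding weeks, and the 3 mice of the sedentary group had not. Wild-type muscle was not analysed here, so each difference is between exercised and sedentary AR97Q mice. RNA of each mouse was hybridised to 1 single-colour Agilent array, on which the value of a probe is the brightness of its spot.

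A myosin heavy chain is the motor of the thick filament, and the isoform that a fibre makes sets how fast it contracts and in large part which fibre type it is called. Most of these genes stand in a row on chromosome 11, in the order Myh3, linc-MYH, Myh2, Myh1, Myh4, Myh8, whereas Myh6 and Myh7 are neighbours on chromosome 14 and Myh7b is on chromosome 2. The quadriceps of adult mice is a predominantly fast muscle, the embryonic and perinatal isoforms return when fibres regenerate or lose their nerve, and linc-MYH is transcribed in fast fibres from within the cluster.

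The 250 bases before the start of the genes on which the results turn are printed here because these genes share a cluster and differed in size and direction. The sequences are those of RefSeq on build GRCm38.p6, 5′ to 3′ on the strand of the gene. Capitals mark matches, on either strand, to the E-box CANNTG, the MCAT element CATTCC, the TATA box TATAAA and the MEF2 motif.
Myh4, chr11:67237562-67237811, plus strand: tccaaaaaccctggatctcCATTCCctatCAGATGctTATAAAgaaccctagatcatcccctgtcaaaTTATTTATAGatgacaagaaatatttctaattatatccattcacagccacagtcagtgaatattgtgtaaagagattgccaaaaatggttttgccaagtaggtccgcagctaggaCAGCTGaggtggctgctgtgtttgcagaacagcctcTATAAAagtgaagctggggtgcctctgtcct
Myh8, chr11:67276874-67277123, plus strand: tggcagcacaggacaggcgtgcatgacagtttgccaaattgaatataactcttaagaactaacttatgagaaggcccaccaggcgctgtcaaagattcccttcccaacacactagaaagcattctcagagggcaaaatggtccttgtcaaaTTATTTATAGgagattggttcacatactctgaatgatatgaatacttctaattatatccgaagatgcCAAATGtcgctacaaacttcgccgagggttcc
Myh1, chr11:67199852-67200101, plus strand: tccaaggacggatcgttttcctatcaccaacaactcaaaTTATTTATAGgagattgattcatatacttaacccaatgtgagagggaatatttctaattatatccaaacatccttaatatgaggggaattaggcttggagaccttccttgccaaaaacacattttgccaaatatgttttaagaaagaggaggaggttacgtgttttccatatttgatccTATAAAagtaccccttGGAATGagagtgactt
2310065F04Rik, chr11:67120081-67120330, minus strand: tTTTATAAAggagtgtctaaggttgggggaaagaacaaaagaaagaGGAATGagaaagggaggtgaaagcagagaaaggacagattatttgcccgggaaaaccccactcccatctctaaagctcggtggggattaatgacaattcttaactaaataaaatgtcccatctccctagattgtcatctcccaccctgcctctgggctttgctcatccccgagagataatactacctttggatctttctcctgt
Myh3, chr11:67078050-67078299, plus strand: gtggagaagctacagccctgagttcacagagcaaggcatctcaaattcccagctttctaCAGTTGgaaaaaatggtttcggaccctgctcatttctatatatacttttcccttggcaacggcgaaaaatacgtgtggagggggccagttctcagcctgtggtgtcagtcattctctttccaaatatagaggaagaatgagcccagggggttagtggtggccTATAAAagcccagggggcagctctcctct
The MEF2 motif was found before Myh1, Myh4 and Myh8, in 3 of the 10 windows of the 9 members (Myh7 has 2 annotated starts), and in 2.92% of 32851 promoter windows of the same length. The same 10 letters stood in all 3 windows, from position -211 of Myh1, -182 of Myh4 and -99 of Myh8 counted from the gene start, and each overlaps a TATAAA match on the other strand. A further TATAAA stood at -32 before Myh1, at -31 before Myh4 and at -29 before Myh3, and 5 of the 10 windows held at least 1, against 12.4% of all windows. The matches of linc-MYH lay near the far end of its window, at -249 and -247, on opposite strands and overlapping. An E-box was present in 7 of the 10 windows and in 66.2% of all, and an MCAT element in 5 of 10 and in 12.6% of all. These are matches of letters only, and no binding was measured in this series.

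Saturation was absent on all arrays, and arrays of the same group correlated at 0.9881 or more. Detected probes made up 54.6 to 57.4% of an exercise array and 57.8 to 59.9% of a sedentary array, so every sedentary array had the larger share. All arrays were on 1 slide, but the 3 exercise arrays and sedentary array 1 lay in strip 1 and sedentary arrays 2 and 3 in strip 2. The strip therefore moves with the group in part, and the difference from sedentary array 1 alone, within strip 1, is given beside each member. The upper quartile of the signal was 251 to 257 on the exercise arrays and 310 to 384 on the sedentary arrays, so the scaling between arrays is itself unequal between the groups. Values below are log2 of the processed signal minus the 75th percentile of its array, which compares arrays for 1 probe and does not compare probes with each other. The SE of a difference is that of the limma fit across all 32726 probes. The probe sequences were not used here. Myh1, Myh2, Myh4 and Myh8 are close relatives, and so are Myh6 and Myh7. Cross-hybridisation between such genes cannot be told apart from their own signal. As in any whole muscle, a smaller share of fibres of a type and less RNA per fibre cannot be told apart.

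The long noncoding RNA showed the largest group difference among the members. linc-MYH read 4.22, 3.38 and 4.14 on the 3 exercise arrays and 1.73, 1.28 and 0.73 on the 3 sedentary arrays. All exercise arrays were above all sedentary arrays, and the lowest exercise array was still well above the highest sedentary array. The difference was 2.67 on the log2 scale (SE 0.32, n = 3 per group), a 6.34-fold higher level in the exercise group, and it was 2.18 against sedentary array 1 alone. Across all settings tried, the difference stayed between 2.18 and 2.93. The deviation of the arrays within a group was small beside this, with a range of 1.79-fold among exercise arrays and 2.00-fold among sedentary arrays.

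Myh4, which encodes the fastest heavy chain of limb muscle, was higher on every exercise array by both of its probes. The brighter probe (A_51_P338072) read 9.60, 9.53 and 9.69 on the exercise arrays and 9.16, 8.75 and 8.42 on the sedentary arrays. The other probe (A_55_P2744675) read 4.64, 4.34 and 5.07 on the exercise arrays and 4.08, 3.04 and 2.48 on the sedentary arrays. Neither probe had overlapping groups, and sedentary array 1 was the nearest to the exercise arrays by both. The probes ranked the sedentary arrays in the same way. Their r over the 6 arrays, 0.986, includes the group difference that both show. The difference was 0.83 (SE 0.19) by the brighter probe, 1.78-fold, and 1.48 (SE 0.42) by the other, 2.79-fold. Against sedentary array 1 alone these were 0.45 and 0.60. The brighter probe was at 0.34 with quantile normalisation and 0.36 without scaling between arrays, and it did not pass the FDR in either.

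Myh1 and Myh2, the IIX and IIA heavy chains, differed less, and their groups overlapped. Myh1 read 8.38, 8.10 and 8.47 on the exercise arrays and 8.23, 7.74 and 7.76 on the sedentary arrays, a difference of 0.41 (SE 0.17). Sedentary array 1 lay among the exercise arrays, and against it alone the difference was 0.09. The brighter Myh2 probe (A_51_P225134) read 7.14, 7.51 and 8.0 on the exercise arrays and 7.59, 6.57 and 7.23 on the sedentary arrays. The other Myh2 probe (A_55_P2744634) read -0.87, -0.52 and 0.17 on the exercise arrays and -0.09, -1.38 and -1.0 on the sedentary arrays. Both Myh2 probes were highest on exercise array 3 and lowest on sedentary array 2 (r = 0.954 over the 6 arrays), and both gave a difference of 0.42, with an SE of 0.32 and 0.40. Within strip 1 the Myh2 differences were -0.04 and -0.32, below 0. The direction of Myh1 and of the brighter Myh2 probe turned with the scaling: without scaling between arrays they were -0.07 and -0.05, and with quantile normalisation -0.03 and 0.07, where the median of all probes shifted by -0.45 and -0.01 in place of 0.02.

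A comparison of changes within each array does not depend on the subtraction of a percentile. For this, the difference between 2 probes was taken on each array and centred over the 6 arrays. Myh4 minus Myh1 was 0.14, 0.35 and 0.14 on the exercise arrays and -0.14, -0.07 and -0.42 on the sedentary arrays, so that Myh4 was higher relative to Myh1 on all exercise arrays, by 0.43 between the group means. Myh4 minus Myh2 differed by 0.41 between the groups and Myh1 minus Myh2 by -0.02, and in both cases the groups overlapped. linc-MYH minus Myh4 was 1.23, 0.46 and 1.06 on the exercise arrays and -0.82, -0.86 and -1.07 on the sedentary arrays, a difference of 1.83 with no overlap. This rests on the brighter Myh4 probe, and linc-MYH was chosen for its large difference, so it is a description only.

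The embryonic gene Myh3 went the other way by its brighter probe. This probe (A_55_P2066440) read -0.93, -1.86 and 0.12 on the exercise arrays and 0.66, 2.06 and 1.65 on the sedentary arrays. The groups did not overlap, but the gap between exercise array 3 and sedentary array 1 was small beside the spread within each group, which spanned 3.93-fold among exercise arrays and 2.64-fold among sedentary arrays. The difference was -2.35 (SE 0.57), a 5.09-fold higher level in the sedentary group, and -1.55 against sedentary array 1 alone. The second Myh3 probe (A_55_P2744649) was well above background on 3 arrays only, exercise arrays 1 and 3 and sedentary array 3. It read -3.78, -5.67 and -4.19 on the exercise arrays and -6.94, -5.02 and -4.45 on the sedentary arrays, with overlapping groups and a difference of 0.92 (SE 0.76). The probes of Myh3 did not follow each other over the arrays (r = -0.02), and the mean of both would give a difference of -0.71.

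The bright probe of the perinatal gene Myh8 behaved unlike Myh3 and very much like Myh4. It (A_51_P143296) read 10.18, 10.15 and 10.25 on the exercise arrays and 9.77, 9.40 and 9.16 on the sedentary arrays, a difference of 0.75 (SE 0.16) with no overlap, and 0.43 against sedentary array 1 alone. After each group's mean was subtracted, its deviations correlated at 0.998 with those of the brighter Myh4 probe over the 6 arrays, and linc-MYH deviated with Myh4 at 0.822 and with Myh8 at 0.794. The SD of these Myh4 and Myh8 probes was 0.08 and 0.06 within the exercise group and 0.37 and 0.31 within the sedentary group. Their deviations were thus mostly those of the sedentary arrays, of which array 1 lay in another strip. Correlations over all 6 arrays are not given for pairs among Myh4, Myh8 and linc-MYH, because these separate the groups. The dim Myh8 probe (A_55_P2744654), well above background on 4 arrays, read -4.24, -5.68 and -4.33 on the exercise arrays and -4.84, -3.84 and -3.43 on the sedentary arrays. Its groups overlapped, its difference was -0.71 (SE 0.50), and it ran against the bright probe over the arrays (r = -0.657). With quantile normalisation the difference of the bright probe was 0.15, and the mean of both probes gave 0.02. Which transcripts the bright Myh8 probe bound was not tested.

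The slow gene Myh7 varied more within each group than between the groups. It read 0.99, 1.96 and 3.69 on the exercise arrays and 3.95, 1.66 and 2.07 on the sedentary arrays. The highest value of each group, on exercise array 3 and sedentary array 1, stood apart from the other two arrays of its group, and the range was 6.47-fold within the exercise group and 4.90-fold within the sedentary group. The difference between the groups was -0.35 (SE 0.85), with overlap, and it was -1.74 against sedentary array 1 alone. Its direction turned with single arrays: it was 0.35 without sedentary array 1 and 0.26 without exercise array 1, but -1.08 without exercise array 3. Without exercise array 3 and sedentary array 1 together, it was -0.39.

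Myh7b and Myh6 were also highest on exercise array 3 and sedentary array 1, as were both probes of the fast gene Myh2. Myh7b, an ancient slow-type heavy chain that carries a microRNA of its family in an intron, read -2.17, -1.84 and -0.22 on the exercise arrays and -0.09, -2.18 and -1.70 on the sedentary arrays. Its difference was -0.08 (SE 0.70), and it ran from -0.68 without exercise array 3 to 0.53 without sedentary array 1. Within strip 1 it was -1.32. The detected probe of Myh6, the alpha heavy chain of the heart, read -1.30, -1.65 and -0.65 on the exercise arrays and -0.87, -1.89 and -1.46 on the sedentary arrays, a difference of 0.20 (SE 0.34) that was -0.07 without exercise array 3, -0.04 without sedentary array 2 and -0.33 within strip 1. For both genes the groups overlapped. The other Myh6 probe (A_55_P2140453) was not well above background on any array and is the 1 member probe that was not tested. Of the markers of heart muscle, Nppb, Myl7, Nkx2-5 and Ryr2 were not well above background on at least 3 arrays, and the 4 that were, Nppa, Tbx5, Hcn4 and Tnni3, had 0 of 4 past the threshold and mean centred levels of -0.05 to 0.02 on the exercise arrays and -0.06 to 0.06 on the sedentary arrays.

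**Figure D1:**
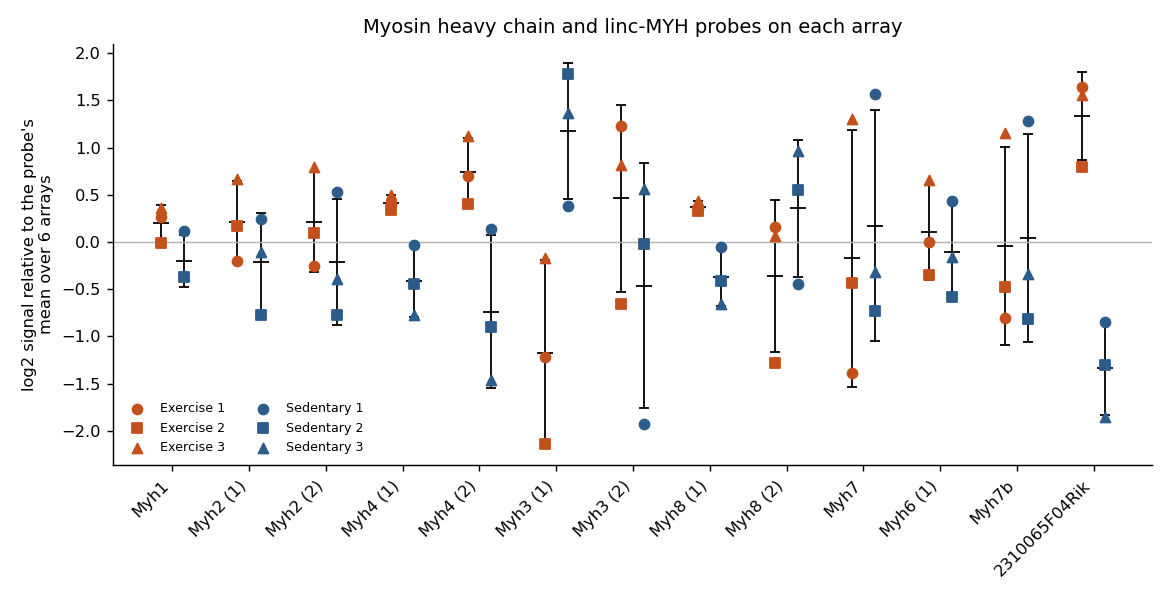
The log2 signal of each tested member probe on each array is plotted relative to the mean of that probe over the 6 arrays, with exercise arrays in orange and sedentary arrays in blue, marker shapes for the array number, and black bars for the group mean and SD (n = 3). Probes of 1 gene are numbered by brightness. linc-MYH and both Myh4 probes are higher on all exercise arrays, Myh3 (1) is lower on all of them, and Myh7 and Myh7b are high on exercise array 3 and sedentary array 1.

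Over the 36 pairs of members (those that separate the groups were also computed and count in the adjustment), taken by their brightest probes on the 6 arrays, Myh7 and Myh7b gave r = 0.98 and rho = 0.943. The exact permutation p was 0.00278 for r, 0.025 after Benjamini-Hochberg adjustment over the 36 pairs, and 0.0167 for rho, 0.15 after adjustment. The pairs among Myh4, Myh8 and linc-MYH, which separate the groups, had a p for r as low or lower. They lower the adjusted value of 0.025, so it is not read as a pass. Without exercise array 3 and sedentary array 1, the arrays farthest from the median, r was 0.81, and after subtraction of the group means it was 0.986. Within the groups alone, with 3 arrays each, the relation cannot be tested. Myh6 and Myh7b gave r = 0.888 (exact permutation, adjusted p = 0.156), which was 0.178 without the 2 arrays and so rested on them. Myh7 and Myh6 gave r = 0.781 and rho = 0.6 (exact permutation, adjusted p = 0.187 and 0.435), and r was -0.429 without the same 2 arrays. Myh7 and Myh2 gave r = 0.719, a like value of 0.808 without the 2 arrays farthest for Myh2, and 0.918 after subtraction of the group means. This pair passed neither before nor after adjustment (exact permutation for r, p = 0.0986 and adjusted p = 0.221).

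Of the companions of the slow heavy chain, Myl2 and Tnnc1 had the same 2 arrays highest. Myl2, the slow regulatory light chain, read 3.13, 3.86 and 4.97 on the exercise arrays and 4.86, 4.26 and 4.43 on the sedentary arrays. Tnnc1, the slow troponin C, read -1.29, -0.57 and 0.68 on the exercise arrays and 0.25, -0.30 and -0.22 on the sedentary arrays. For both genes the exercise arrays spread widely and array 3 was the highest of all 6, and their correlation with Myh7 over the arrays was 0.886 and 0.904, given as a description. Among the other slow companions it was 0.811 for Tpm3, 0.549 for Tnnt1, 0.424 for Tnni1 and 0.237 for Atp2a2. For Myl3, Myl6b and Casq2 it was 0.0971, 0.0916 and -0.0151, so most of the list did not follow Myh7 closely. Myh13, the heavy chain of extraocular muscle at the end of the cluster, also had exercise array 3 and sedentary array 1 highest, at 1.5 and 1.17, with the other arrays between -0.55 and 0.42. Of the markers of muscle spindle fibres, in which Myh7b is also made, Egr3 was lowest on sedentary array 1 (-3.40) and highest on exercise array 3 (-0.82), Etv4 was higher on sedentary array 1 (-2.60) than on the other sedentary arrays (-3.09 and -3.23), and Etv5 was highest on exercise array 3 (2.67) and, at 2.48, highest of the sedentary arrays on array 1. The correlation of Egr3, Etv4 and Etv5 with Myh7 over the arrays was 0.151, 0.0838 and 0.645. Among adipocyte markers Cfd read 6.79, 7.30 and 8.49 on the exercise arrays and 8.27, 8.22 and 7.81 on the sedentary arrays, with exercise array 3 and sedentary array 1 highest. The correlation with Myh7 was 0.765 for Cfd, 0.695 for Cidec, 0.656 for Retn, 0.566 for Plin1, 0.561 for Adipoq and -0.161 for Lep, and the part of fat or spindle RNA in the spread of Myh7 was not tested.

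**Figure D2:**
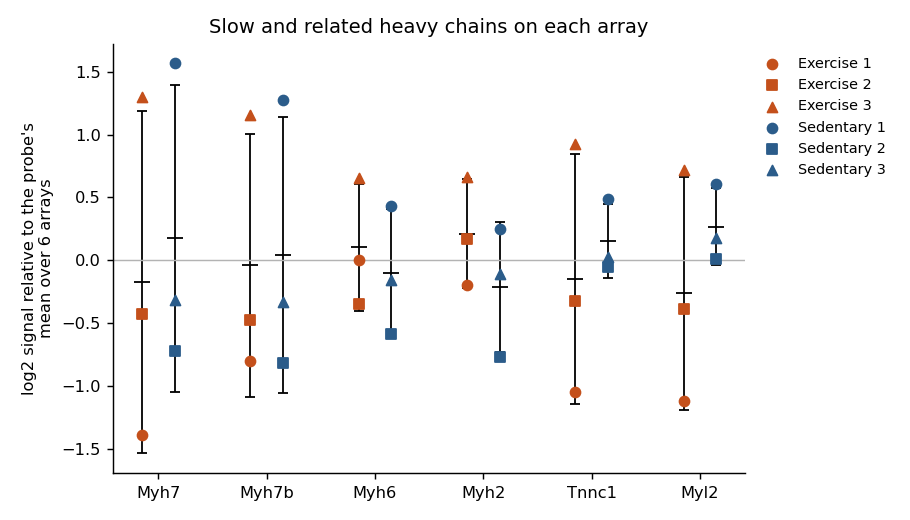
The log2 signal of Myh7, Myh7b, Myh6, Myh2 and the slow-fibre genes Tnnc1 and Myl2 is plotted relative to the mean of each probe over the 6 arrays, with the group mean and SD in black (n = 3). Exercise array 3 (orange triangle) and sedentary array 1 (blue circle) are the 2 highest arrays for Myh7, Myh7b, Myh6, Myh2, Tnnc1 and Myl2.

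The study called a gene differentially expressed (DEG) at a false discovery rate (FDR) under 0.05 and an absolute log2 difference of at least 1. By limma with Benjamini-Hochberg adjustment over all probes, 1 member probe was a DEG in the higher direction (linc-MYH) and 1 in the lower (the brighter Myh3 probe) of 13 tested, where 1.57% and 0.987% of all probes were called. At the FDR alone, 3 member probes were higher (linc-MYH, the brighter Myh4 probe and the bright Myh8 probe) and 1 lower, where 10.5% and 5.65% of all probes passed. The groups did not overlap for 4 member probes in the higher and 1 in the lower direction, where this held for 24% and 17.8% of all probes. Because the members were chosen with this contrast known, nothing is read from these counts. The calls stood close to the threshold as a whole: the lowest adjusted p of any probe was 0.024, and leaving out any array but sedentary array 1 left no member called (0 higher, 0 lower), whereas without sedentary array 1 there were 3 higher and 1 lower. The same holds for the other genes given here (all lists, the marker lists included, and Myhas, 28 higher and 17 lower), of which 0 passed without any array but sedentary array 1, with either block or within strip 1.

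**Figure D3:**
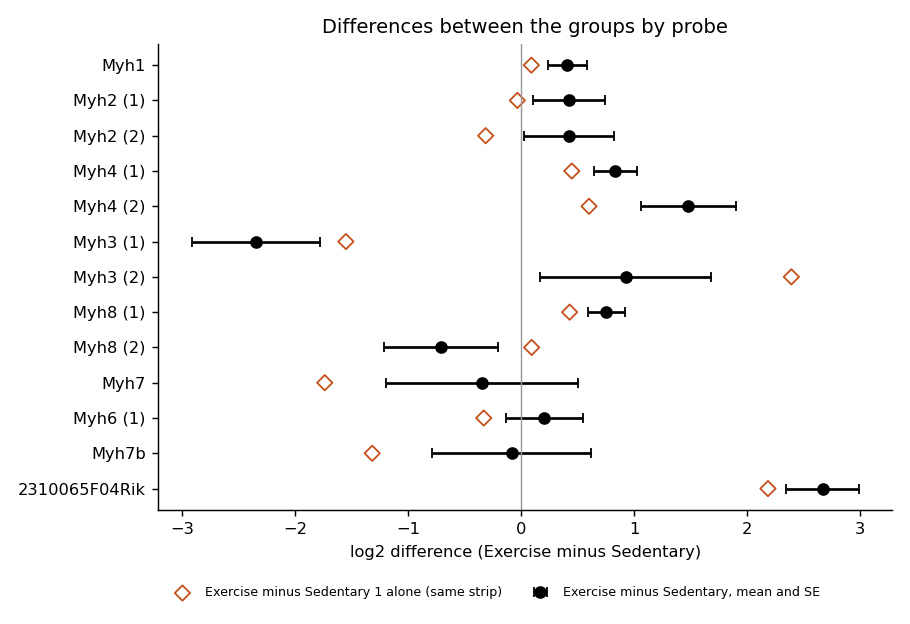
The log2 difference between the group means is plotted for each tested member probe (black, with the SE of the limma fit), beside the difference of the exercise mean from sedentary array 1 alone, the array in the same strip of the slide (orange diamonds). The black points run from -2.35 for Myh3 (1) to 2.67 for linc-MYH, and most diamonds lie nearer to 0 or on its other side, with Myh3 (2), Myh7 and Myh7b farther out.

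Other RNAs of the cluster were named for their position. Myhas, a long noncoding RNA listed between Myh1 and Myh4 and read against them, was -1.62, -1.73 and -1.88 on the exercise arrays and -3.11, -3.42 and -3.53 on the sedentary arrays. The groups were far apart, and the difference of 1.61 (SE 0.14) passed the test in limma (adjusted p = 0.024), and was 1.37 within strip 1. Both linc-MYH and Myhas thus differed by more on the log2 scale than the brightest probes of Myh2, Myh1, Myh4 and Myh8. The dimmer Myh4 probe gave 1.48 (SE 0.42), near the 1.61 of Myhas. Gm31285 and Mir6923, also listed in the cluster, were not examined. Myh13 gave 0.56 (SE 0.54) and did not pass (limma, adjusted p = 0.489). Nor did the genes that flank the cluster, with a difference of 0.27 for Sco1, -0.25 for Adprm and -0.13 for Tmem220 by their brightest probes.

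**Figure D4:**
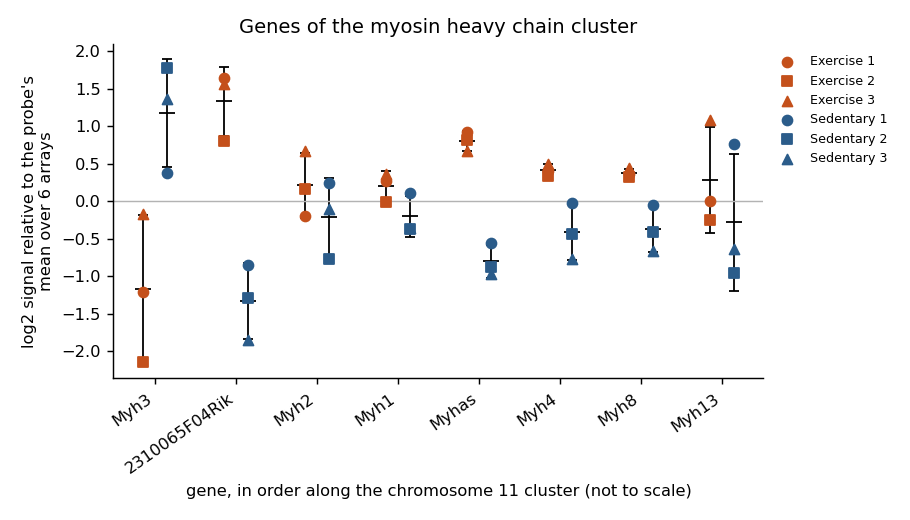
The brightest probe of each gene examined here in the chromosome 11 cluster is plotted in the order of the genes (not to scale), as log2 signal relative to its mean over the 6 arrays, with the group mean and SD in black (n = 3). The groups do not overlap for Myh3, linc-MYH (2310065F04Rik), Myhas, Myh4 and Myh8, with Myh3 alone lower in the exercise group.

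The list written for proteins that work with the heavy chains in the thick filament and the M-band held 18 genes, not all of which belong there. Of these, 5 passed the FDR in the higher and 0 in the lower direction, with a median difference of 0.26 against 0.02 over all probes, and 1 was a DEG. This was Mybpc2, the fast isoform of myosin-binding protein C, which read 7.42, 7.18 and 7.55 on the exercise arrays and 6.62, 5.86 and 5.41 on the sedentary arrays, a difference of 1.42 (SE 0.30, limma adjusted p = 0.0329). Among the others were Trim54 (0.67) and Smyd1, a methyltransferase of the heavy chain's folding pathway (0.56). Stac3 (0.56) also passed and is counted in the list, but it is not a protein of the thick filament or the M-band. Myom3, an M-band protein of slow and intermediate fibres, gave -1.10 and did not pass (limma, adjusted p = 0.0759). Hsp90aa1, the chaperone that folds myosin with Unc45b, gave -0.71 and Unc45b gave 0.21, and neither passed. The count of this list rested on the scaling, with 0 higher and 0 lower under quantile normalisation and 1 higher and 5 lower without scaling, where Mybpc2 was 1.13 and did not pass, and 0.95.

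Factors known to act on heavy chain genes were measured with 26 genes, of which 5 rose and 2 fell at the FDR and 0 were DEGs, with a median difference of 0.15. Sox6, a repressor of slow genes in fast fibres, rose by 0.64 (SE 0.13, limma adjusted p = 0.0323), from 3.05 to 3.38 on the sedentary arrays to 3.69 to 4.0 on the exercise arrays, and Tbx15, a factor of glycolytic fibres, by 0.66. Maf, of the large Maf family that acts on Myh4, rose by 0.72, and Thra, a receptor for thyroid hormone, by 0.62. Prox1, a factor of slow fibres, fell by 0.97 and Hdac4, a deacetylase that increases after loss of the nerve, fell by 0.63. Myog, a myogenic factor of differentiating and denervated fibres, gave -1.18 and did not pass (limma, adjusted p = 0.0615). With quantile normalisation 1 factor of the list was higher and 1 lower (Thra and Hdac4), and without scaling 0 were higher and 10 lower.

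Companions of the fast heavy chains moved together. All 9 measured genes (Tnnt3, Tnni2, Tnnc2, Mylpf, Myl1, Actn3, Pvalb, Atp2a1 and Casq1) rose at the FDR, 5 of them as DEGs, with a median difference of 1.09. The largest was Pvalb, the calcium buffer of fast fibres, at 1.67 (SE 0.34), and the smallest Tnnc2, at 0.52. The deviations of all 9 within the groups correlated with those of Myh4 at 0.883 to 0.982. The SD of the brighter Myh4 probe was 0.08 within the exercise group and 0.37 within the sedentary group. These correlations thus rest mostly on the sedentary arrays, of which array 1 lay in another strip, and cannot be told apart from the strip. With quantile normalisation 4 of the 9 passed and Tnnc2 was -0.11, and without scaling 6 passed. Companions of the slow heavy chain, also 9 genes, had a median of -0.53 with 1 gene higher and 3 lower at the FDR. Tnni1, the slow troponin I, fell by 1.46 (SE 0.29, limma adjusted p = 0.0285), Atp2a2 fell by 0.79 and Myl6b fell by 0.74. Myl3, a light chain of slow fibres and heart, rose by 0.97, from 7.13 to 7.55 on the sedentary arrays to 8.02 to 8.46 on the exercise arrays. The slow list had 0 higher and 5 lower under quantile normalisation. These lists were written with earlier results of these arrays known and are no independent evidence of a direction.

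Heavy chains that are not of the sarcomere of limb muscle were led by Myh11, of smooth muscle, which fell by 0.95 (SE 0.09, limma adjusted p = 0.024). Myh14, a nonmuscle form, fell by 0.48 by its brighter probe, whereas its other probe gave 0.05. Of the 6 genes 5 were tested and these were the 2 that passed. Myh15 was not well above background on at least 3 arrays.

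Markers of innervation and of other cells moved with some of the members. Of 9 genes that increase after denervation, 7 were lower in the exercise group at the FDR and 6 were DEGs, with a median difference of -1.27. Their mean centred level was -0.85 to -0.75 on the exercise arrays and 0.00 to 1.30 on the sedentary arrays, the same direction as Myh3, and within it Chrng, the fetal receptor subunit, had sedentary array 1 at 0.28 and arrays 2 and 3 at 2.84 and 3.12. Among markers of satellite cells Pax7 fell by 0.60, Myf5 was not detected on enough arrays, and the mean centred level of the 4 tested was -0.22 to -0.12 on the exercise arrays and 0.11 to 0.19 on the sedentary arrays. Of 10 genes of skeletal muscle fibres 7 were higher at the FDR. Tnnt3, Tnni2 and Mylpf among them were already counted as fast companions, so the lists overlap. Des (0.15), Myf6 (-0.15) and Myod1 (-0.12) did not pass. The mean centred level of the 10 was 0.26 to 0.41 on the exercise arrays and -0.48 to -0.14 on the sedentary arrays, the direction of Myh4 and linc-MYH. Of 6 nerve markers 1 was lower at the FDR, and of 6 macrophage markers 0. Of 6 adipocyte markers 1 was higher at the FDR (Lep, 0.35). The other 5 were lower without passing, and the median of the list was -0.85. The mean centred levels of the adipocyte list were -0.99 to 0.58 on the exercise arrays and 0.14 to 0.51 on the sedentary arrays. Of 3 spindle markers 1 was higher and of 6 smooth muscle markers 1 was higher and 2 were lower (Myh11 and Lmod1). The higher smooth muscle marker was Acta2 by its brightest probe (1.32), whereas its other tested probes gave -0.80 and -0.89. The part of these lists in the differences of the members was not tested.

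The genes whose pattern over the 6 arrays was most like that of a member were taken from 15736 named genes, by Pearson's r with the brightest probe of the member. For linc-MYH they were Bysl (0.9998), Zglp1 (0.9986) and Kcnj11 (0.9985), and for Myh4 they were Sema6b (0.999), Hmgb1 (0.9984) and 1700028I16Rik (0.9982). For Myh3 they were Tstd2 (0.998), Mcm8 (0.9972) and Tram2 (0.9957). These values are a description over 6 arrays that share the group difference, and the median r over all genes compared was 0.101 for linc-MYH, 0.0935 for Myh4 and -0.113 for Myh3. The differences of these genes between the groups were much smaller than those of the member for linc-MYH and Myh3, for example 0.26 for Bysl and -0.26 for Tstd2.

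**Figure D5:**
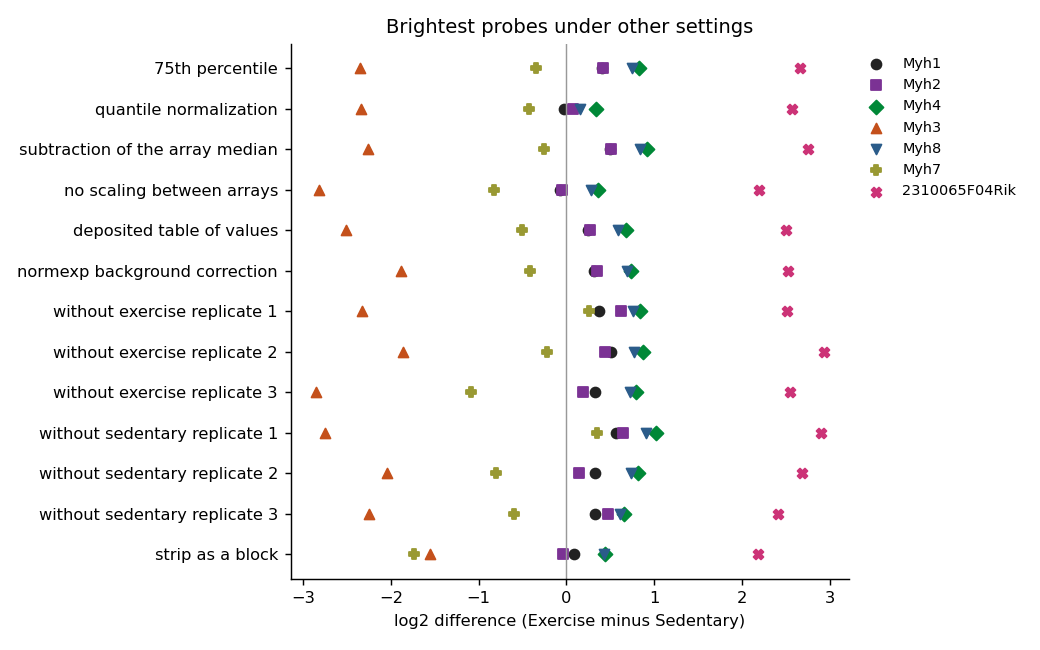
The log2 difference of the brightest probe of 7 members is plotted under each scaling, background correction, array left out and the strip as a block, where 75th percentile is the setting used in the text. linc-MYH stays between 2.18 and 2.93 and Myh3 stays below 0, whereas Myh1, Myh2 and Myh7 cross 0.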

How the data were processed

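Quadriceps RNA of 6 mice was hybridised to 6 single-colour arrays, and the authors read the images with Agilent Feature Extraction 12.1.0.3. The authors deposited the processed intensity of each spot with its background, and flags for control, outlier, saturated and well-above-background spots (other columns), beside a table of signal values for all arrays whose making is not given in the sources used here. From these, log2 of the processed intensity was taken, 3671 control spots of 62976 and outlier spots were left out, spots of a probe were averaged and the 75th percentile of the array was subtracted. Of 56583 probes complete on all arrays, 32726 were well above background on at least 3 arrays and were tested, 1 row per probe. Transcript identifiers were matched without versions to a RefSeq table of GRCm38, used for names and gene order only, and 34566 probes matched. Groups follow the labels (n = 3). Mice are taken as separate animals, and the number of arrays limits the precision.

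The comparison used lmFit and eBayes of limma 3.58.1 (R 4.3.3), two-sided, with Benjamini-Hochberg adjustment over all probes and no covariates, a fit also tested on simulated data. The study's methods name iDEP and the DEG threshold (FDR under 0.05 and an absolute log2 difference of at least 1). A list gene is represented by its brightest probe, and some list genes are counted but not reported here by name. Its centred level is the value minus the mean over the 6 arrays. The members and lists were chosen with earlier results of these data known. All members were named, and from each list the DEGs or otherwise the 2 largest changes. The other list genes were named after their values were seen, and Myhas, Sco1, Adprm and Tmem220 for their position. The 3 genes most like a member were named by r. Alternatives were quantile normalisation, the array median, no scaling, the deposited table, normexp (offset 50), other filters, 1 row per gene, each array left out, blocks, array weights, trend and robust eBayes, the methods' t-test on the same values, and FDR alone. Leaving out 1 array of each group (sedentary 1 and exercise 3) was chosen after seeing the data.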

Additional observations from a re-analysis of the deposited data

How the results depend on the processing

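DEG counts over all probes (513 higher and 323 lower) depended on the setting. They were 163 and 2697 without scaling, 294 and 658 with the deposited table, 226 and 68 with normexp, 820 and 704 with array weights, 32 and 28 with the methods' t-test after Benjamini-Hochberg, and 3445 and 1849 at FDR alone. The higher count was 848 without the filter on dim probes. The lower count was 189 with the filter on all arrays and 604 without 1 array of each group. With the strip as a block there were 0 higher and 3 lower, and within strip 1 there were 0 and 0, where the lone sedentary array is assumed to vary like the exercise arrays. With the replicate number as a block, limma called 0 higher and 0 lower (10813 probes at unadjusted p under 0.05), 0 members and 0 listed genes. Same-numbered arrays deviated together at 0.0151, 0.085 and 0.0253. The best match in the sedentary group was array 3 for exercise array 1, array 2 for array 2 and array 3 for array 3. Deviations from means of 3 arrays cannot decide whether the numbers pair the mice. Leaving out 1 array at a time gave 0 to 861 higher and 0 to 586 lower, and only leaving out sedentary array 1 left more than 1 call.

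Member calls (1 higher, 1 lower) ranged from 0 to 3 higher and from 0 to 1 lower with 1 array left out. They were 2 higher with the array median, no scaling, normexp, the strictest filter, averaged probes, array weights and without 1 array of each group, and 3 at FDR alone. They were 0 higher with either block, within strip 1 and with the t-test, and 0 lower with these, without the filter, with averaged probes and with trend and robust eBayes.

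Genes past the FDR in the 5 lists of partners, regulators, other heavy chains and slow or fast companions (20 higher, 7 lower, marker lists not counted) were 0 to 25 and 0 to 9 with 1 array left out. They were 5 higher with quantile normalisation, 8 higher and 25 lower without scaling, 12 higher with the deposited table, 13 lower with normexp, 11 lower with array weights, 2 and 1 with the t-test, and 0 and 0 with the strip as a block or within strip 1. No called member probe changed direction under any alternative. The second Myh3 probe, which was not called, ran against the called Myh3 probe with normexp and passed the FDR there (0.50, limma adjusted p = 0.00922). Among other genes past the FDR, those whose direction turned included Tnnc2 with quantile normalisation (-0.11), Lep without scaling (-0.12), Lmod1 with normexp (0.10) and Acta2 with averaged probes (-0.12). The median of all probes was -0.45 without scaling, -0.14 with the deposited table, 0.11 with the array median and 0.16 without the filter, in place of 0.02. The correlation of Myh7 and Myh7b was 0.970 to 0.985 under the other scalings, background correction and filters. The causes of these differences were not tested. Signal over background limits the dim probes of Myh3, Myh8 and Myh6 (well above background on 3, 4 and 0 arrays).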
